A study of Mus musculus with 8 samples.

Results

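The MHC class I presentation genes described here were the heavy chain genes H2-T22 (ENSMUSG00000056116_at), H2-K1 (ENSMUSG00000061232_at) and H2-D1 (ENSMUSG00000073411_at), the light chain gene B2m (ENSMUSG00000060802_at), the immunoproteasome genes Psmb8 (ENSMUSG00000024338_at), Psmb9 (ENSMUSG00000096727_at) and Psmb10 (ENSMUSG00000031897_at), and the peptide transporter genes Tap1 (ENSMUSG00000037321_at) and Tap2 (ENSMUSG00000024339_at). They were selected by Ensembl gene ID from a list of 10 names, and 9 distinct rows of the 27835 on the array carried them. The ID listed for the tenth name, Tapbp, repeated that of Tap2, so Tapbp was not analysed here. Gene names follow that list, because neither the deposited table nor the RefSeq gene table pairs an Ensembl ID with a symbol. The genes were grouped by function with results of these arrays already known, among them the 2 separate levels of H2-T22 and the differences between genotypes, so the values below are a description and are not independent evidence for the grouping.

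RNA came from proB colonies, early B lineage cells grown from mouse bone marrow in a semi-solid methylcellulose culture for 1 week. Of the 8 Affymetrix arrays, 4 held RNA of wild-type cells and 4 that of transgenic cells overexpressing HMGN1, called HMGN1 arrays below. HMGN1 is a nucleosome-binding protein. The labels used here give no strain, age, sex, transgene promoter or pooling, and do not say whether each array stands for a mouse of its own. The p-values therefore cover only the variation among these 8 samples, part of which may be technical.

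Nearly all nucleated cells display peptides from their own proteins on MHC class I molecules. The peptides are cut by the proteasome, whose catalytic subunits are exchanged for the interferon-inducible immunoproteasome subunits in many blood cells, and are pumped into the endoplasmic reticulum by the transporter made of Tap1 and Tap2. There they are loaded onto a class I heavy chain paired with β2-microglobulin. Mouse heavy chains are encoded in the H2 complex, where the classical genes H2-K1 and H2-D1 and non-classical genes such as H2-T22 resemble each other in sequence and vary between inbred strains. Signal of one heavy chain gene may therefore include transcripts of another. The probe sequences were not used here.

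Array medians lay between 95.8 and 100.1 in intensity, the unit of all levels given here. Wild-type replicate 3 stood apart on the first principal component of all genes (29.9% of variance), at 36.2 against -0.84 to 2.51 for the other wild-type arrays, and HMGN1 replicate 4 on the second. The overexpressed gene and markers of proB or other cell types were not checked, since the rows could not be paired with their names. In such bulk RNA, fewer cells of a type and less RNA per cell cannot be told apart.

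All 9 genes had a higher mean in HMGN1 colonies, by a median of 0.16 on the log2 scale, against a median of -0.0018 over all genes, of which 49.4% were above 0. The 3 genes with the widest differences were H2-T22, Psmb9 and Tap1. By limma with Benjamini-Hochberg adjustment over all genes, 0 of the 9 passed the threshold of 0.05, where 0.0144% of all genes did. At an unadjusted p under 0.05 there were 4 of 9, all higher in HMGN1, against 5.83% of all genes in that direction. The 4 HMGN1 arrays lay wholly above the 4 wild-type arrays for H2-T22, Psmb8, Psmb9 and Tap1, and for 4.15% of all genes. Because this contrast was known when the genes were listed, nothing is read from these counts.

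**Figure D1:**
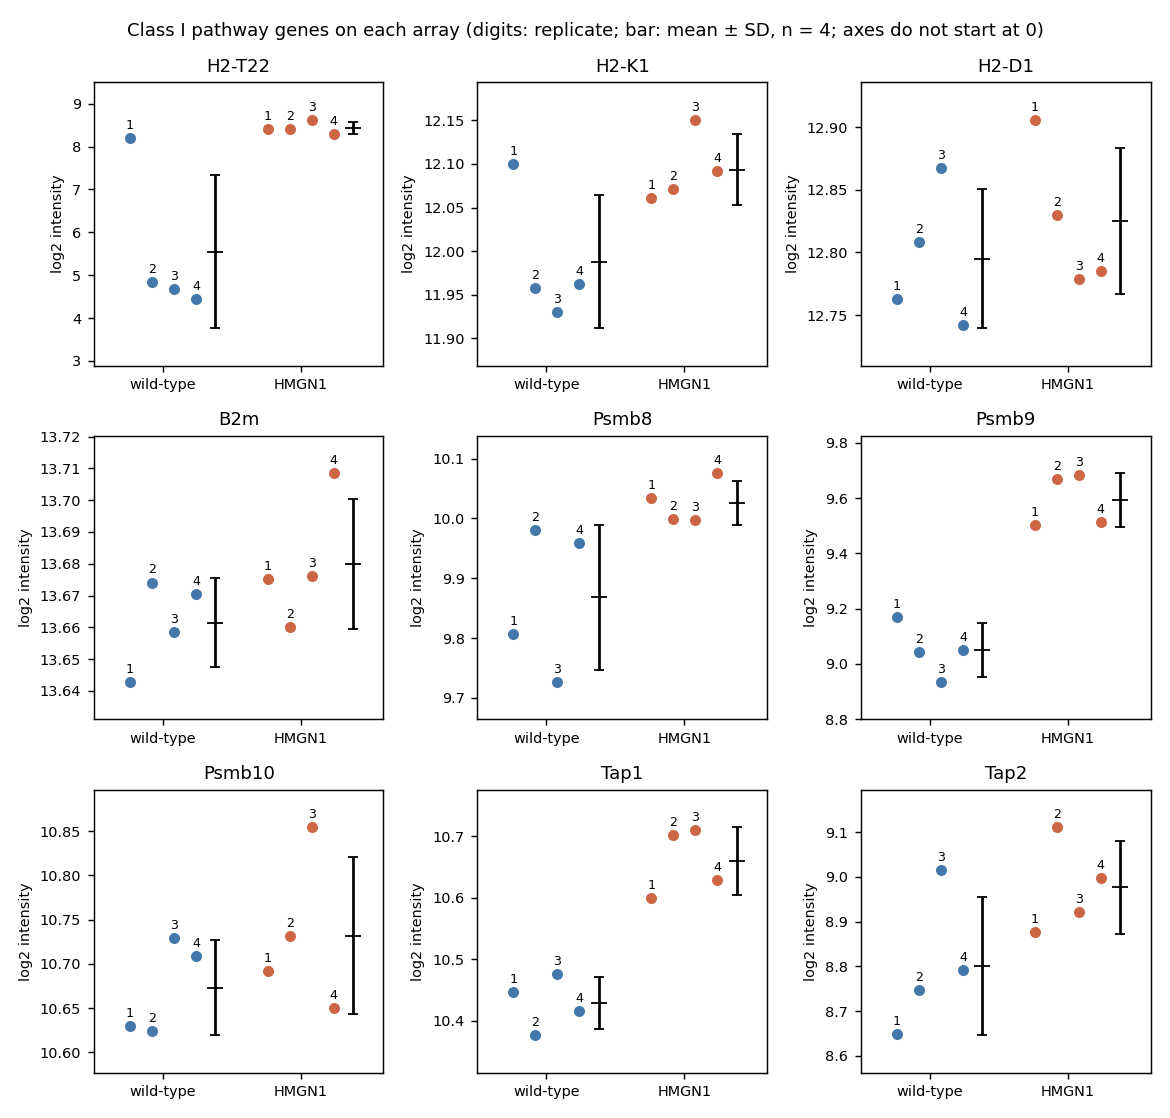
Log2 intensity (y axis of each panel, own scale, not starting at 0) of the 9 genes on every array, wild-type on the left and HMGN1 on the right, with the replicate number above each point and bars for the mean ± SD (n = 4). Wild-type replicate 1 sits just below the HMGN1 arrays for H2-T22 and among them for H2-K1. The genotypes do not overlap for H2-T22, Psmb8, Psmb9 and Tap1, with a gap of only 0.017 for Psmb8.

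Psmb9 encodes an inducible catalytic subunit of the immunoproteasome. Its intensity was 576, 528, 489 and 530 in wild-type replicates 1 to 4 and 725, 814, 823 and 732 in HMGN1 replicates 1 to 4. Every HMGN1 array thus exceeded every wild-type array, with the lowest HMGN1 value 0.33 above the highest wild-type value on the log2 scale. Mean intensity was 531 ± 35.6 in wild-type and 773 ± 52.0 in HMGN1 (SD, n = 4 each), a 1.46-fold difference with a 95% interval of 1.30 to 1.63. The log2 fold change was 0.54 (SE 0.073), and the gene had the 8th lowest unadjusted p of the table. It missed the threshold (limma adjusted p = 0.0865). Psmb9 passed it when HMGN1 replicate 1, its lowest HMGN1 array, was left out (limma adjusted p = 0.0478). Leaving out that array also raised the number of genes called over all genes from 4 to 40. Over all alternatives the limma adjusted p of Psmb9 was 0.0478 to 0.268.

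Tap1, which forms one side of the peptide transporter, had intensities of 1395, 1329, 1423 and 1366 in wild-type replicates 1 to 4. In HMGN1 replicates 1 to 4 they were 1551, 1665, 1675 and 1583. The genotypes did not overlap, and the difference of 1.17-fold (95% interval 1.08 to 1.28) was smaller than that of Psmb9. The log2 fold change was 0.23 (SE 0.056, limma adjusted p = 0.2), from a mean intensity of 1378 ± 40.4 to 1619 ± 61.3 (SD, n = 4 each). Wild-type replicate 3, which stood apart over all genes, was the highest wild-type array for Tap1 and the lowest for Psmb9.

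The starts of Psmb9 and Tap1 face away from each other on chromosome 17 of GRCm38.p6, with no annotated gene between them and 225 bases from one start to the other. The sequence between the starts is shown because both genes had non-overlapping genotypes and share it as upstream region. It was taken from the RefSeq promoter table, plus strand (the Tap1 strand), chr17:34187331-34187555, and capitals mark a CCAAT box, the motif searched on both strands.
Psmb9-Tap1: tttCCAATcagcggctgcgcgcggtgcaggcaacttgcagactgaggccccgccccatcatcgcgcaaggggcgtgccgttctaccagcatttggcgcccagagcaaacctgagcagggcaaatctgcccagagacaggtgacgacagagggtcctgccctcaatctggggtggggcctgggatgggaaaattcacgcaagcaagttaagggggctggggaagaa
The CCAAT box lies next to the Psmb9 start. A CCAAT box was found in the 250 bases upstream of the start of 34.5% of 27025 genes, and in that of 6 of the 8 class I pathway genes present in the table, where the match of Psmb9 and that of Tap1 are the same site. Tap2 had no entry. The letters GAAANNGAA, GTGAAA and GGGANTCCC, searched on both strands, had 0 matches between the Psmb9 and Tap1 starts.

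Psmb8, the next gene along after Tap1 on chromosome 17, encodes another immunoproteasome subunit. Its intensity was 895, 1010, 848 and 995 in wild-type replicates 1 to 4 and 1048, 1023, 1022 and 1079 in HMGN1 replicates 1 to 4. The genotypes were separated by 0.017 on the log2 scale, and overlapped once array medians were subtracted or the values quantile-normalized. The fold difference was 1.12 (95% interval 1.00 to 1.24, limma adjusted p = 0.477), and wild-type replicates 2 and 4 lay close to the HMGN1 arrays. Without wild-type replicate 3, the lowest array, the log2 fold change was 0.11 in place of 0.16.

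Psmb10, the third inducible subunit, is encoded on chromosome 8. Its intensity ran from 1578 to 1697 in wild-type and from 1607 to 1852 in HMGN1, so the genotypes overlapped. The fold difference was 1.04 (95% interval 0.94 to 1.15, limma adjusted p = 0.782). Without HMGN1 replicate 3, the highest array, the log2 fold change was 0.018 in place of 0.059.

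Tap2, the partner of Tap1, is the neighbour of Psmb8 on chromosome 17. Its intensity was 401, 429, 517 and 443 in wild-type replicates 1 to 4 and 470, 553, 485 and 511 in HMGN1 replicates 1 to 4. Wild-type replicate 3 lay above HMGN1 replicates 1, 3 and 4, and the genotypes overlapped. The fold difference was 1.13 (95% interval 0.99 to 1.30, limma adjusted p = 0.525). Leaving out wild-type replicate 3 gave a log2 fold change of 0.25 and leaving out wild-type replicate 1 gave 0.13, against 0.18 with all arrays.

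Within an array, the difference in log2 intensity between a pair of these genes shows whether they changed unequally. Relative to the wild-type mean, Psmb9 minus Psmb8 was -0.12 to 0.18 in wild-type and 0.26 to 0.50 in HMGN1. Psmb9 minus Psmb10 was -0.17 to 0.16 in wild-type and 0.43 to 0.56 in HMGN1, and Psmb9 minus Tap1 was -0.16 to 0.10 and 0.26 to 0.35. Psmb9 thus differed by more than each of those genes on every HMGN1 array. Tap1 minus Tap2 overlapped between genotypes, at -0.17 to 0.17 and -0.038 to 0.16. These pairs were chosen after the values were seen and were not tested.

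**Figure D2:**
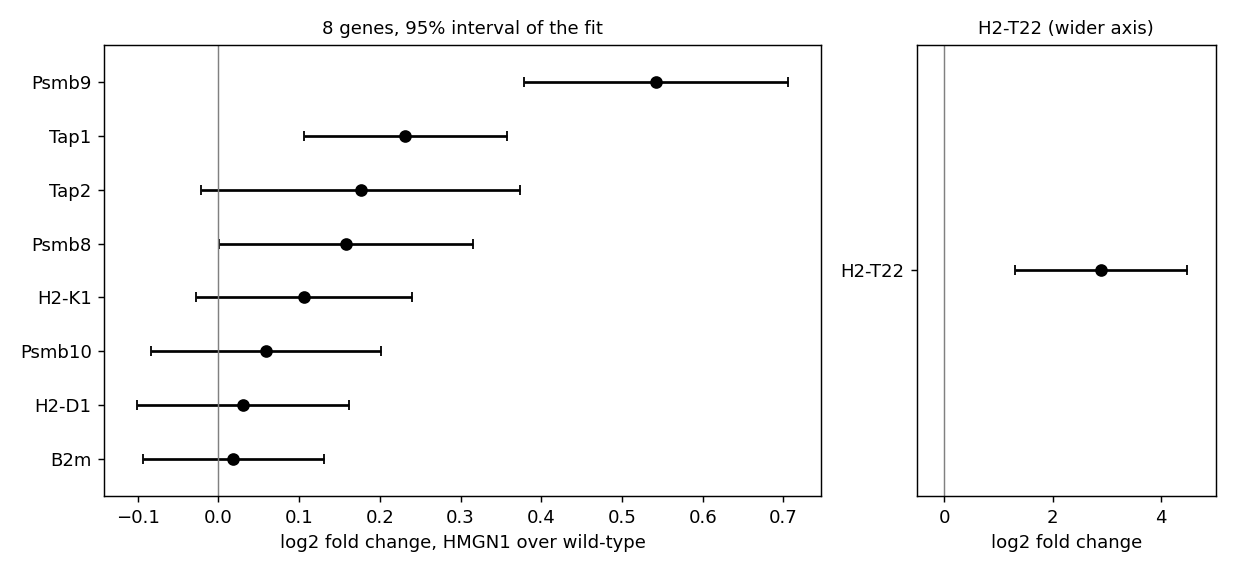
Log2 fold change of HMGN1 over wild-type (x axis) from the fit over all genes, with its 95% interval (bars), for 8 genes on the left and H2-T22 on a wider axis on the right. Psmb9 lies at 0.54 and Tap1 at 0.23, and B2m, H2-D1 and Psmb10 lie within 0.06 of 0.

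H2-D1 and B2m showed the narrowest differences. H2-D1, a classical heavy chain, ran from 6849 to 7472 in wild-type and from 7029 to 7676 in HMGN1, with a fold of 1.02 (95% interval 0.93 to 1.12, limma adjusted p = 0.895). B2m, the light chain shared by class I molecules, ran from 12791 to 13071 in wild-type and from 12945 to 13386 in HMGN1, with a fold of 1.01 (95% interval 0.94 to 1.09, limma adjusted p = 0.926). Both sets of values overlapped between genotypes. The residual SD of B2m was 0.017 on the log2 scale, and 0.0359% of genes had a smaller one. The highest intensity on an array was 16239 to 17578, so B2m lay close to the top of the range, and whether its signal was compressed there was not tested.

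H2-K1, the other classical heavy chain, had intensities of 4390, 3978, 3903 and 3991 in wild-type replicates 1 to 4. In HMGN1 replicates 1 to 4 they were 4271, 4302, 4547 and 4367. Wild-type replicate 1 lay among the HMGN1 arrays, above 3 of the 4, and the genotypes overlapped. The log2 fold change was 0.11 (SE 0.06, limma adjusted p = 0.578), a fold of 1.08 with a 95% interval of 0.98 to 1.18. Without wild-type replicate 1 the log2 fold change was 0.14.

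H2-T22, a non-classical heavy chain of the T region of the H2 complex and a ligand of a subset of γδ T cells, had 2 widely separate levels. Its intensity was 295 in wild-type replicate 1 and 28.5, 25.8 and 21.9 in wild-type replicates 2, 3 and 4. In HMGN1 replicates 1 to 4 it was 339, 342, 395 and 316. Wild-type replicates 2 to 4 were low and the other 5 arrays high, with wild-type replicate 1 just below the HMGN1 arrays, 0.096 on the log2 scale from the lowest of them. On its own array, the low level ranked at percentile 14.8 to 19.8 of all genes and the high level at 68.3 to 72.5.

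The log2 value of H2-T22 was 4.45 to 4.83 in wild-type replicates 2 to 4 and 8.21 to 8.63 in the other 5 arrays. The gap between the sets was 3.37 as deposited and 2.81 on the log2(intensity + 16) scale. Whether the low level was above background is unknown, so the 10.4-fold ratio of the lowest of the 5 to the highest of the 3 is one of signals, not of transcript amounts. This grouping of arrays was found from these values and no test was made of it. A gap of at least 1 between the same sets of arrays was found for 3 genes, 0.0108% of all. Between genotypes the log2 fold change was 2.89 (SE 0.706) with a 95% interval of 1.31 to 4.47, which missed the threshold (limma adjusted p = 0.2). Its residual SD of 1.26 was larger than that of 99.9% of genes, with 1 high array among the wild-type ones. Without wild-type replicate 1 the log2 fold change was 3.78 (limma adjusted p = 2.05e-06), but the array left out was chosen for this very pattern, so the value gives no evidence of a difference between genotypes.

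**Figure D3:**
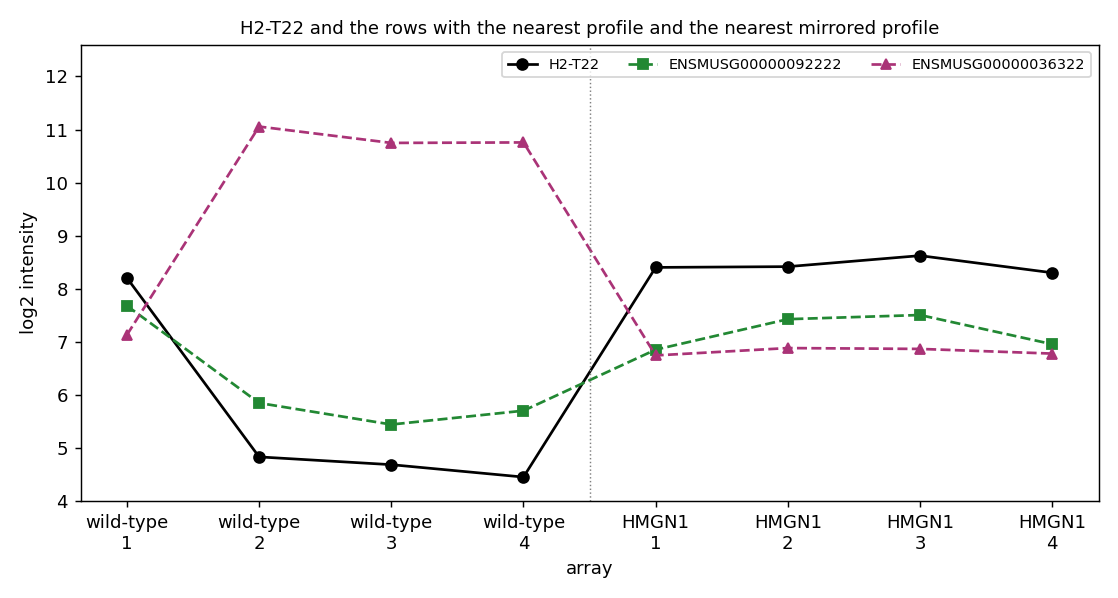
Log2 intensity (y axis) on each array (x axis; wild-type left of the dotted line, HMGN1 right) of H2-T22, of the row with the most similar profile (squares) and of the row with the most similar mirrored profile (triangles). Wild-type replicate 1 lies near the HMGN1 arrays in all 3 rows.

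Among 1077 genes with a range of at least 1 on the log2 scale, the profile nearest to H2-T22 turned upside down was that of ENSMUSG00000036322, at a root mean square difference of 0.24 between centred log2 values over the 8 arrays. That row lay at 10.75 to 11.06 in wild-type replicates 2 to 4 and at 6.75 to 7.13 in the other 5 arrays. The next mirrored profile was at 1.21. The nearest profile in the same direction, ENSMUSG00000092222, was at 1.07, with 5.44 to 5.85 against 6.85 to 7.68. These rows and H2-T22 are the 3 genes with a gap of at least 1. Neither row could be named here. For the median profile of the other 8 genes of the pathway, the nearest of 7672 rows with a range of at least 0.5 was at 0.099 in the same direction and at 0.097 mirrored. That median profile itself ran only from -0.085 in wild-type replicate 1 to 0.080 in HMGN1 replicate 3. Both distances are larger than any of its values. Rows had to range over at least 0.5 to be considered, far more than this profile does, so none of them could lie close to it. Whether other rows resemble the profile was therefore not examined, and nothing is read from these distances.

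Besides H2-T22, from which the sets of arrays were read, H2-K1 and Psmb9 were lower in wild-type replicates 2 to 4 than in each of the other 5 arrays, as were 3.67% of all genes. Nothing is read from this count, since the sets were known when the genes were listed. For H2-K1 the gap was 0.098 on the log2 scale, and for Psmb9 it was 0.12. The gap of H2-T22 was far wider. For Psmb9 the step between wild-type replicate 1 and the lowest HMGN1 array, at 0.33, was wider than the gap. For H2-D1, B2m, Psmb8, Psmb10, Tap1 and Tap2 the sets overlapped.

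Upstream sequences of H2-T22 and H2-D1 are shown because H2-T22 was the gene with 2 levels and H2-D1 a heavy chain with close values on all arrays. Each is the 250 bases before the gene's start in the RefSeq promoter table, build GRCm38.p6, which is the C57BL/6J genome and may not be that of these mice. Capitals mark letters known from interferon-responsive elements, GAAANNGAA and the GTGAAA core that can overlap it, and the letters GGGANTCCC of a κB-type element, on either strand. H2-T22 is on the minus strand, chr17:36042743-36042992, and H2-D1 on the plus strand, chr17:35262844-35263093.
H2-T22: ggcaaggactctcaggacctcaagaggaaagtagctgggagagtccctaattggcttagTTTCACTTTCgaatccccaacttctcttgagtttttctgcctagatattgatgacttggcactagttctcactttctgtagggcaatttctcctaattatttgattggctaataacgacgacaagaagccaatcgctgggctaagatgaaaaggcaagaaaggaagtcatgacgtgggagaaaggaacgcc
H2-D1: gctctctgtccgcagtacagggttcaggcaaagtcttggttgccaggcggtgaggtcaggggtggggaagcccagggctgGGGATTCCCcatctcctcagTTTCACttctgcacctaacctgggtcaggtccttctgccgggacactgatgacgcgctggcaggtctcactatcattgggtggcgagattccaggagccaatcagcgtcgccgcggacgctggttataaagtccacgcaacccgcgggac
GAAANNGAA was found upstream of H2-T22 and B2m, and of 7.16% of all genes. GTGAAA was found upstream of H2-T22, H2-K1 and H2-D1, and of 11.3% of all genes. GGGANTCCC was found upstream of H2-K1 and H2-D1, and of 0.64% of all genes. Matches are a description of letters in the reference genome and say nothing of binding in these colonies.

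Of the 9 genes, 7 lie on chromosome 17, while B2m is on chromosome 2 and Psmb10 on chromosome 8. Psmb9, Tap1, Psmb8 and Tap2 are neighbours in that order, with 0 annotated genes between them. Along this row of neighbours the log2 fold changes were 0.54, 0.23, 0.16 and 0.18. H2-K1, with 0.11, lies on one side of them and H2-D1, with 0.03, on the other, followed by H2-T22 with 2.89.

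**Figure D4:**
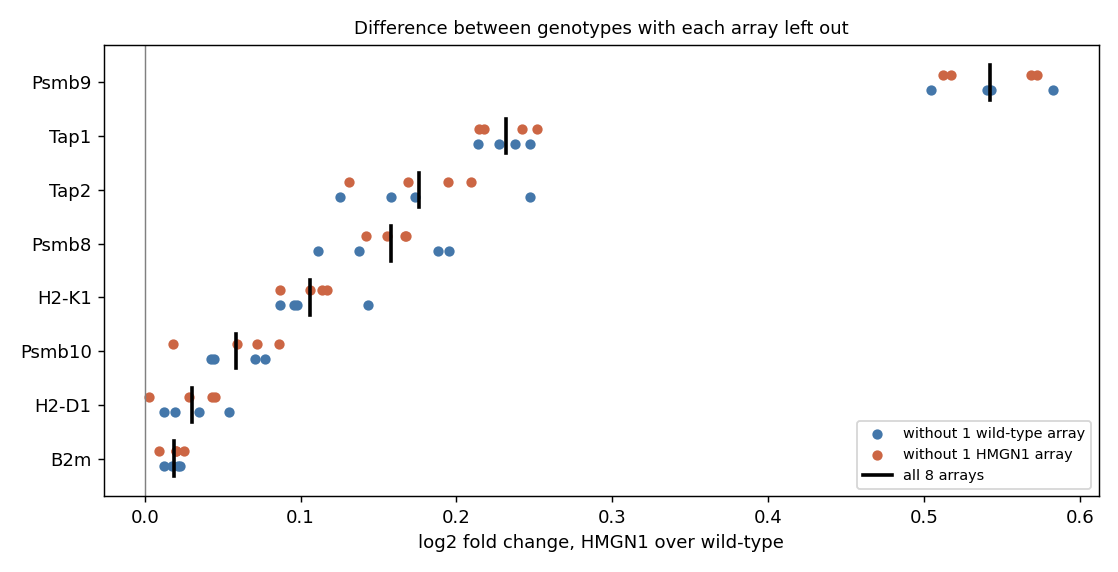
Log2 fold change of HMGN1 over wild-type (x axis) for 8 genes with each array left out in turn (points, coloured by the genotype of the array left out) and with all 8 arrays (black bars). All points lie above 0, and those of Psmb9, at 0.50 to 0.58, lie apart from those of the other 7 genes.

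With each array left out, the log2 fold change of all 9 genes stayed above 0. That of H2-D1 came down to 0.0031 without HMGN1 replicate 1 and that of B2m to 0.0091 without HMGN1 replicate 4. Psmb9 ranged from 0.50 without wild-type replicate 3 to 0.58 without wild-type replicate 1, and Tap1 from 0.21 to 0.25.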

How the data were processed

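The values deposited by the authors were an intensity on a linear scale, 1 per gene and array, made with RMA, per the submitters' processing notes; RMA corrects background, quantile-normalizes the arrays and summarises probes. The linear scale was read from the values. The sources used here name no chip definition or genome build. A shift in total RNA is removed by that normalization, and background left in the signal understates fold changes of dim genes.

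Log2 intensity was fitted over all 27835 genes and 8 arrays with limma 3.58.1 (lmFit, eBayes; R 4.3.3), with no filter and no block, and Benjamini-Hochberg adjustment at 0.05. The genes, lists, pairs and motifs were chosen with earlier results of these data known. All 9 selected genes were named, and the nearest row and the nearest mirrored row of H2-T22 were given by ID only. No pair of arrays were copies (0.0144% to 0.108% equal values). A RefSeq table of 49997 genes held 0 Ensembl IDs, so 14 lists of pathway and marker genes with 235 symbols were not tested. On simulated data with 200 changed genes, the fit called 36 of 50 genes changed 1.5-fold and 12 of 50 changed 1.25-fold. Changes of 2-fold and 3-fold were also simulated, with 47 of 50 and 49 of 50 called. On the real arrays only 4 genes were called, so the adjustment was stricter there and the simulated shares do not carry over. The number of arrays limits the precision. Alternatives were array medians subtracted, quantile normalization, genes above the median signal only, log2(intensity + 16), a trended and robust variance, a replicate block and each array left out.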

Additional observations from a re-analysis of the deposited data

Results flagged for a closer look

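H2-T22 in wild-type replicate 1 had a log2 value of 8.21, far from 4.45 to 4.83 in the other wild-type arrays. Over all genes, wild-type replicate 3 lay far from its group on the first principal component, at 36.2 against -0.84 to 2.51, and HMGN1 replicate 4 on the second, at 19.8 against 4.54 to 6.37. Such arrays turned up in 3 of the 24 groups of 4 values that were looked at. About 1.2 would do so by chance in groups chosen without regard to their values. The levels of H2-T22 were known when it was listed, and the groups share the same arrays, so nothing is read from this count.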

How the results depend on the processing

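The log2 fold changes of all 9 genes kept their sign under each of the 14 alternatives. By limma, 0 of the 9 passed under every alternative that kept all arrays, and leaving out 1 array gave 0 to 1: H2-T22 without wild-type replicate 1 and Psmb9 without HMGN1 replicate 1. Their median log2 fold change was 0.16, and 0.11 to 0.17 with 1 array left out. Over all genes 4 were called, 3 to 5 under the alternatives of scaling, filter, offset and variance, and 0 to 40 with 1 array left out (40 without HMGN1 replicate 1, 9 without wild-type replicate 1, 1 without wild-type replicate 4 and 0 without any other). With a replicate block, limma called 0 genes (2374 at an unadjusted p under 0.05), and the lowest adjusted p of the 9 genes was 0.268. Deviations of same-numbered arrays were not positively related (r = -0.078, -0.088, -0.24 and -0.095 over all genes). The labels do not say whether such arrays share more than a number, and these correlations cannot decide it. With log2(intensity + 16) the gap of H2-T22 was 2.81 in place of 3.37, since the offset lifts low values. The genotypes were separate for 4 of the 9 genes, and for 3 after median subtraction or quantile normalization, where Psmb8 overlapped. No signal over background was used, so detection of the low level of H2-T22 is unknown.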
